A study of Mus musculus with 6 samples.

Results

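The genes described here encode the proteasome, its activators and the chaperones that assemble it. They were chosen by name: every probe set that the platform annotation assigns to 1 gene whose symbol runs from Psma to Psmg followed by a number was taken, without the interferon-inducible subunit genes Psmb8, Psmb9 and Psmb10, and each gene was read at its brightest probe set over the 6 arrays. Of 18193 genes measured, 46 matched. Of these 46, 44 are proteasome genes, and 2 (Psmc3ip and Psme3ip1) share only the name and are described at the end. The naming rule uses no measured difference, but the gene family was chosen with earlier results of these data known, so its counts are descriptions.

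Affymetrix 1-colour arrays had been hybridised with RNA from splenic T cell preparations of 3 mice lacking miR-142 (KO) and 3 wild-type littermates (WT). All 6 mice were C57BL/6 males aged 10 weeks, and the cells came from individual spleens by negative selection, in which antibodies remove other cell types and leave the T cells untouched. The comparison asked which transcripts of these preparations differ when miR-142, a microRNA made throughout the blood lineages, is missing. Replicates are separate mice, numbered here as in the labels.

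miR-142 gives a mature strand from each arm of its hairpin. Both are shown because they are what the KO mice lack, with the seed (bases 2 to 8 of the strand) in capitals. The sequences are those of RefSeq, on chromosome 11 of GRCm38.p6, plus strand, at chr11:87756867-87756887 for the 5p strand and chr11:87756903-87756925 for the 3p strand.
mmu-miR-142a-5p: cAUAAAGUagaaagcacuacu
mmu-miR-142a-3p: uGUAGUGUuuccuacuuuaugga

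The proteasome is the protease that degrades ubiquitin-tagged proteins in the cytosol and nucleus. A barrel of stacked alpha and beta rings holds the cutting sites inside, and a regulatory particle on its end, made of a base with a ring of ATPases and a lid, binds the ubiquitin chain, removes it, unfolds the protein and threads it in. In lymphocytes and other immune cells, interferon-inducible subunits can replace the standard catalytic ones and the PA28 activator can cap the barrel, which alters the peptides left for class I antigen presentation.

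The probe set listed as Mir142, a transcript of the targeted locus, stood at 7.93, 8.13 and 7.67 in the WT arrays and at 5.97, 5.88 and 5.90 in the KO arrays (log2 intensity), and fell by 1.99 (limma adjusted p = 6.6e-05). Here rose and fell mean an adjusted p below 0.05 in limma, a linear model over all probe sets, with Benjamini-Hochberg adjustment. Whether it lies in the deleted part was not known here. The T cell label did not describe the KO preparations fully: all 10 of the 12 listed T cell markers that were measured fell, with a list mean of 12.30 to 12.33 in WT and 9.57 to 10.94 in KO. Markers of neutrophils rose for 11 of 12 genes (list means of 6.22 to 7.29 in WT and 10.45 to 12.95 in KO), and those of mast cells, basophils and eosinophils for 12 of 12 (5.97 to 6.11 and 10.14 to 10.68). Among 8 measured monocyte and macrophage markers 7 rose, among 10 erythroid markers 9 rose and 1 fell, and among 9 proliferation genes 9 rose. The hybridization controls, transcripts spiked into every array, averaged 10.21 ± 0.10 (SD, n = 3) in WT and 9.85 ± 0.06 (SD, n = 3) in KO. KO replicate 1 read low for 18S RNA, at 7.86 against 9.15 and 9.19 in the other KO arrays and 9.55 ± 0.10 (SD, n = 3) in WT. The log2 signal of the 3′ minus the 5′ probe set, a sign of RNA quality, was 0.20 ± 0.03 (SD, n = 3) in WT and 0.36 ± 0.04 (SD, n = 3) in KO for Actb, without overlap; for Gapdh it was -0.18 to -0.15 in WT and 0.18, -0.07 and -0.10 in KO. The part of RNA quality in the results below was not tested. In bulk RNA, a change in the number of cells of one type and a change in the RNA per cell cannot be told apart.

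Of 44 proteasome genes, 23 rose (52.3%), 2 fell and 19 did not pass the test. When arrays were scaled to their hybridization controls 37 rose, against 42.8% of all genes, and neither fall was called. As deposited, the limma test called 18.6% of all 18193 genes higher and 18.6% lower. The median difference of the 44 genes, KO minus WT, was 0.39 on the log2 scale, or 30.8% more signal, against -0.06 over all genes, and 80.5% of all genes had a smaller difference. Risen members differed by 0.34 to 1.11 among those above the median level of all probe sets, with adjusted p from 0.00058 to 0.03. A rise of at least 1.5-fold was seen in 9 of the 23 and of at least 2-fold in 2, Psmd7 and the dim Psma8. Over all genes, 2450 of the 3385 that rose did so by at least 1.5-fold, a larger share than among the members. At least 1 gene rose in each role described below, from 1 of 4 activators and inhibitors to 6 of 8 lid genes, and 8 of the 44 genes had a negative difference, 2 of them with hybridization-control scaling.

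**Figure D1:**
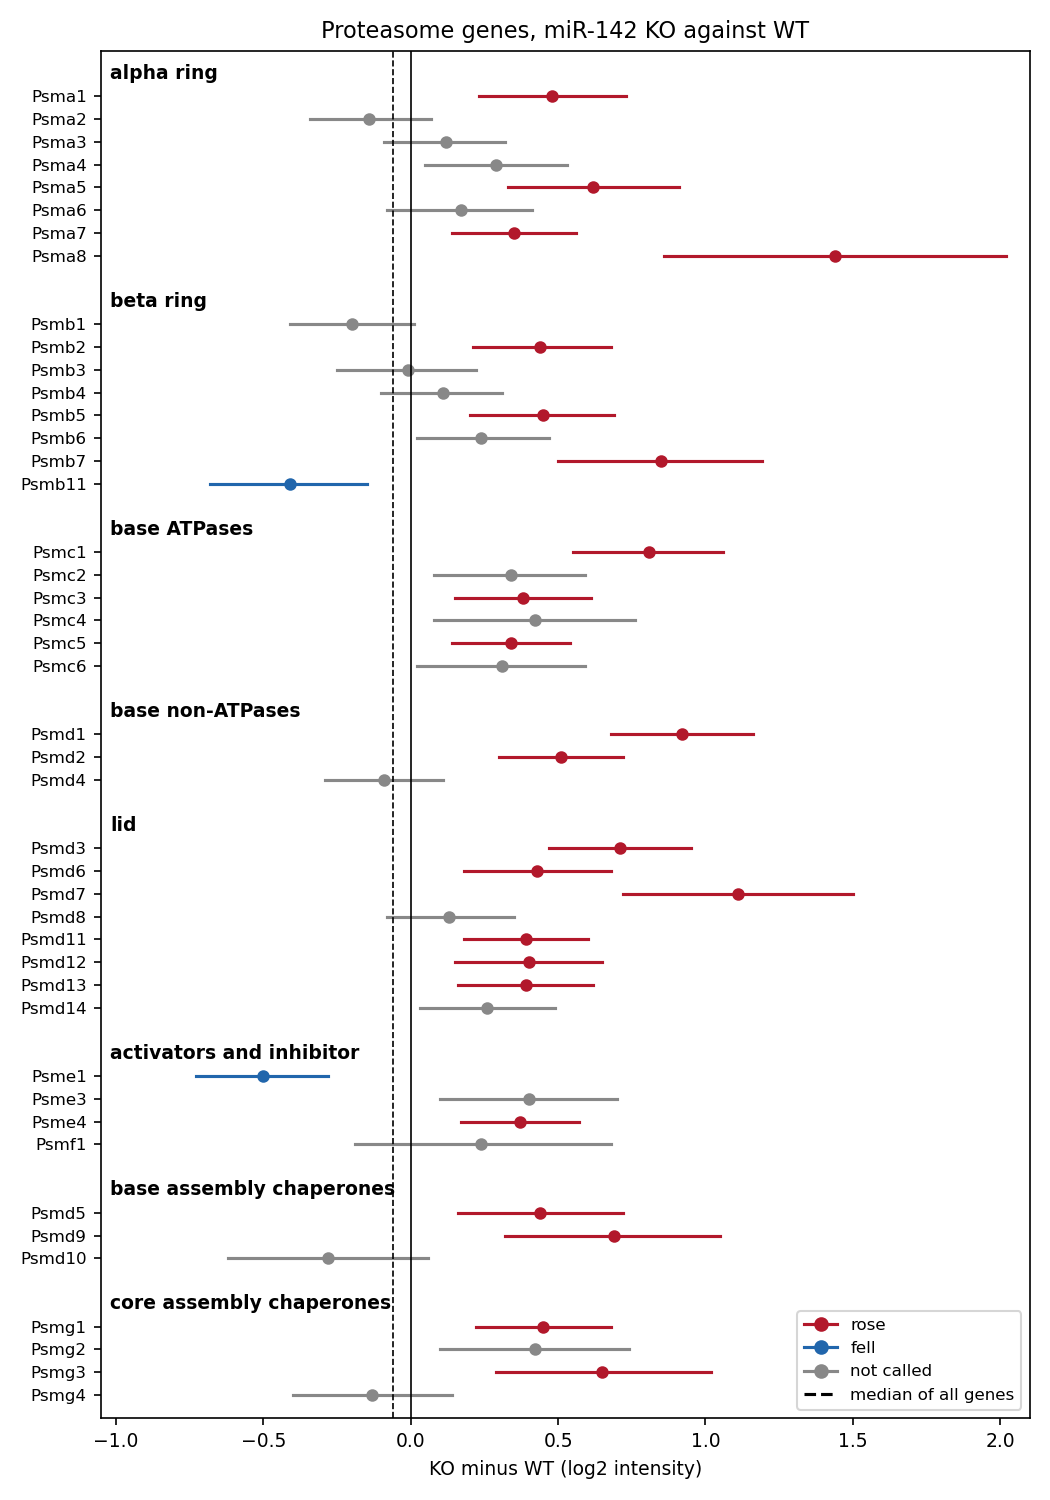
Difference between KO and WT (log2 intensity, x axis) for each of the 44 proteasome genes, grouped by role, with the 95% confidence interval of the moderated limma estimate as a bar; red marks genes that rose, blue genes that fell, grey genes not called, and the dashed line the median of all genes at -0.06. Most points lie to the right, with a median of 0.39, and only Psmb11 and Psme1 fell, neither of them when arrays are scaled to hybridization controls.

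The shift showed in single arrays. For 31 of the 44 genes all 3 KO values lay above all 3 WT values, which held for 24.1% of all genes, and for 4 genes all lay below, against 29.7% of all genes; the other 9 overlapped. The mean level of the 44 genes was 10.73, 10.73 and 10.88 in the WT arrays and 11.02, 11.27 and 11.10 in the KO arrays. KO replicate 2 was the highest KO array for 38 of the 44 genes, or 86.4%, where it was the highest for 44.8% of all genes and for 61.5% of all genes that rose. The same array had the lowest T cell marker mean of the 6 (9.57), the highest proliferation mean (11.43 against 10.97 and 11.10 in the other KO arrays) and the highest erythroid mean (11.13 against 10.23 and 10.57). Its B cell marker mean was also the highest (7.39 against 6.71 and 6.21), though 1 of 9 such markers rose and the markers were split. Cd79a, Cd79b, Pax5, Blnk and Ebf1 (11.22 against 5.91 and 5.64) were highest there among KO arrays. Ms4a1 (5.89 against 8.80 and 7.71), Blk, Cr2 and Fcer2a were lowest there. KO replicate 2 was the lowest KO array for markers of neutrophils (10.45 against 12.95 and 11.08), of mast cells, basophils and eosinophils (10.14 against 10.68 and 10.37) and of monocytes and macrophages (9.50 against 10.27 and 9.78). The part of these cell markers in the proteasome result was not tested. Without KO replicate 2, 19 of 44 genes rose, against 17.6% of all genes.

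**Figure D2:**
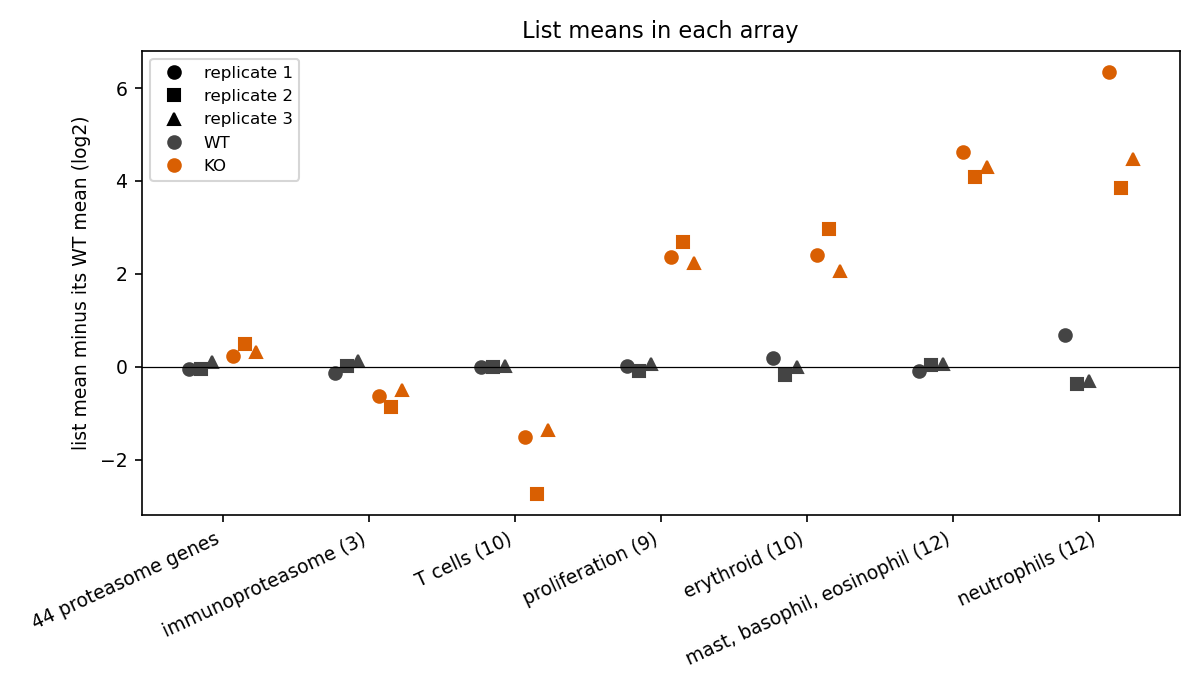
Mean log2 intensity of 7 gene lists in each array after subtracting the list's WT mean (y axis); grey symbols are WT arrays, orange symbols KO arrays, and the shape gives the replicate number. The 44 proteasome genes move up from a mean level of 10.78 in WT to 11.13 in KO and most in KO replicate 2, while the marker lists of other blood cells and of proliferation move by several log2 units and the T cell list moves down.

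How many genes passed depended on single arrays. The count of 23 dropped to 10 without WT replicate 1, to 10 without WT replicate 2 and to 15 without KO replicate 3. With 1 array left out, 14.3% to 17.6% of all genes rose, and 14.3% was the share without WT replicate 2. The 10 of 44 genes stood closer to the share of all genes than the 23 of 44 as deposited. Of the 23, 9 kept their call whichever array was left out. Scaling each array to its 18 hybridization control probe sets moved the median of all genes from -0.06 to 0.31; 37 members then rose, against 42.8% of all genes, and 0 fell by limma at an adjusted or at an unadjusted p below 0.05, against 7.22% of all genes after adjustment. The median of the members stood 0.45 above that of all genes under either scaling, since scaling an array shifts all of its genes alike. Among probe sets above the median level only, 25 of 42 members rose, against 28.5% of all genes there.

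Promoters of the members were compared for 2 short sequences that factors known to act on proteasome genes can bind: the core of the antioxidant response element, TGACNNNGC, bound by Nrf1 and Nrf2 with small Maf partners, and the CCAAT box, bound by NF-Y. RefSeq promoter sequences of GRCm38.p6, running from 250 bases before the start to 50 after it, were matched for 36 of the 44 genes, and both strands were searched. TGACNNNGC was present in 6 of 36 members (16.7%) and in 14% of 27025 genes; it stood in 4 of 17 members that rose and 2 of 19 that did not. CCAAT was present in 13 of 36 members (36.1%) and in 41.1% of all genes, in 3 of 17 that rose and 10 of 19 that did not. Both shares in the members were thus near those of all genes. The 6 genes with TGACNNNGC were Psmb5, Psmb6, Psmc6, Psmd9, Psmd12 and Psme4.

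The 250 bases before the start are shown for 5 members on which the results below turn, 5′ to 3′ on the gene's strand, with a matched motif in capitals. Psmb5 (chr14:54617996-54618245, minus strand) and Psmd9 (chr5:123227940-123228189, plus strand) hold TGACNNNGC within 50 bases of the start, and Psmc1 (chr12:100109952-100110201, plus strand) holds CCAAT farther upstream. Psmd1 (chr1:86064369-86064618, plus strand), which rose with the lowest adjusted p, and Psme1 (chr14:55578244-55578493, plus strand), which fell, hold neither sequence in this window. A match is a description of letters and not a measured binding site.
Psmb5: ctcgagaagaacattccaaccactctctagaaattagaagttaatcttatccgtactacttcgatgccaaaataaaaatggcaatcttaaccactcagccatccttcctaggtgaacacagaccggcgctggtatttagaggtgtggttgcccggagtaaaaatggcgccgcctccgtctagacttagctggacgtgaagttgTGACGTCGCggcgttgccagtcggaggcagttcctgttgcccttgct
Psmd9: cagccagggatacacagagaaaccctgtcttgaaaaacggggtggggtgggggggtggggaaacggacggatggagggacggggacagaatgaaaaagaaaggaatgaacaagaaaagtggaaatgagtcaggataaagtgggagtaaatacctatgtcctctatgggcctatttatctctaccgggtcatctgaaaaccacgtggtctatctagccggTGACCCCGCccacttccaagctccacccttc
Psmc1: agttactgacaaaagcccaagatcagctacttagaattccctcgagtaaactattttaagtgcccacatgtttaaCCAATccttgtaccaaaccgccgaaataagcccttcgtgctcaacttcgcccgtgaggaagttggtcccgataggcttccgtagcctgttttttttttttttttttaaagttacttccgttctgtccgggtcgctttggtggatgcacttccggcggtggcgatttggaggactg
Psmd1: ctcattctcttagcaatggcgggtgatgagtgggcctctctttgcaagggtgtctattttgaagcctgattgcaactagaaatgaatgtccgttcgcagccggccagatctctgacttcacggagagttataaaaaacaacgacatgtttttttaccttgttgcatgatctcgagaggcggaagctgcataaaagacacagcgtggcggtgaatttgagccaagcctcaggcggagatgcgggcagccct
Psme1: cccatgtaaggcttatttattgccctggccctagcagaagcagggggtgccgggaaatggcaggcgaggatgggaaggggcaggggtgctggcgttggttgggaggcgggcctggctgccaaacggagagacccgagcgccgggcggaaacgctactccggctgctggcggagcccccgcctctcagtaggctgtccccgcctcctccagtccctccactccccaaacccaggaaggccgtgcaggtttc

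The alpha ring forms the gate of the barrel. Of its 8 genes 4 rose, with a median difference of 0.32 that was 0.69 with hybridization-control scaling; none fell by limma at an adjusted or an unadjusted p below 0.05. Psma5 stood at 11.57, 11.42 and 11.73 in the WT arrays and at 12.11, 12.39 and 12.10 in the KO arrays (log2 intensity). Every KO array exceeded every WT array, and the difference was 0.62 ± 0.12 (here and below the moderated SE; 1.54-fold, limma adjusted p = 0.0082). A second bright probe set of Psma5 rose by 0.56 (adjusted p = 0.0033), and the mean of its probe sets, a dim one included, by 0.38.

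Psma1 read 11.95, 11.84 and 12.06 in WT and 12.31, 12.58 and 12.40 in KO. The groups did not overlap, and the rise was 0.48 ± 0.11 (1.40-fold, limma adjusted p = 0.012). Its call was lost without WT replicate 2 (adjusted p = 0.052) and with the mean of its probe sets (0.13, adjusted p = 0.41). The other probe sets in that mean were far dimmer, at levels of 6.56, 5.36 and 4.74 against 12.19, and were not called. Psma7 rose by 0.35 (adjusted p = 0.025), a call lost when any WT array or either of KO replicates 2 and 3 was left out (adjusted p from 0.054 to 0.085). Psma8, the alpha subunit of the testis form of the proteasome, was dim: 4.87, 4.43 and 4.99 in WT and 5.74, 6.67 and 6.19 in KO. All KO arrays were above all WT arrays and the difference was called (1.44 ± 0.25, limma adjusted p = 0.0043), but the WT mean of 4.77 lay below the median level of all probe sets, 5.77, so its size is uncertain. The other 4 genes, Psma2, Psma3, Psma4 and Psma6, ranged from -0.14 to 0.29 and were not called. Psma2 was the one of these with all KO arrays below all WT arrays (12.54, 12.56 and 12.68 in WT; 12.38, 12.52 and 12.47 in KO; adjusted p = 0.29), and its difference turned to 0.23 with hybridization-control scaling.

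The beta ring carries the cutting sites, and of its 3 standard catalytic genes Psmb5 and Psmb7 rose and Psmb6 was not called. Over its 8 genes 3 rose and 1 fell, with a median difference of 0.18 as deposited and 0.54 with hybridization-control scaling, under which the fall was lost. Psmb7, the subunit with trypsin-like activity, stood at 10.02, 9.78 and 9.81 in the WT arrays and at 10.67, 11.00 and 10.48 in the KO arrays. It rose by 0.85 ± 0.15 (1.80-fold, limma adjusted p = 0.0045), with no overlap between the groups and with its call kept whichever array was left out. Psmb5, the subunit with chymotrypsin-like activity and the main target of proteasome inhibitor drugs, read 11.26, 11.22 and 11.48 in WT and 11.67, 11.85 and 11.79 in KO. Its 3 KO values were all above its WT values and it rose by 0.45 ± 0.10 (1.36-fold, limma adjusted p = 0.016), a call that ended when WT replicate 1 or 2 or KO replicate 3 was left out (adjusted p from 0.051 to 0.064). Psmb6, the subunit with caspase-like activity, had 11.38, 11.43 and 11.57 in WT and 11.60, 11.78 and 11.73 in KO. These values did not overlap either, but the difference of 0.24 ± 0.10 was not called (adjusted p = 0.10) unless arrays were scaled to hybridization controls (0.61, adjusted p = 0.0043).

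Among the beta subunits without cutting activity, Psmb2 had 11.17, 11.29 and 11.39 in WT and 11.60, 11.79 and 11.80 in KO, without overlap. It rose by 0.44 ± 0.10 (1.36-fold, limma adjusted p = 0.014), and the call was lost without WT replicate 1 (adjusted p = 0.052). Psmb1, Psmb3 and Psmb4 differed by -0.20 to 0.11 and were not called. Psmb11, the catalytic subunit made in the thymus cortex, was dim, at 5.23, 4.98 and 5.29 in WT and 4.76, 4.86 and 4.65 in KO. Its KO values were all lower and it fell by 0.41 (adjusted p = 0.028); the call was lost when WT replicate 1 or 3 or KO replicate 1 or 3 was left out (adjusted p from 0.069 to 0.095), and with hybridization-control scaling (-0.05, adjusted p = 0.72) or repeated quantile normalization (-0.36, adjusted p = 0.055).

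**Figure D3:**
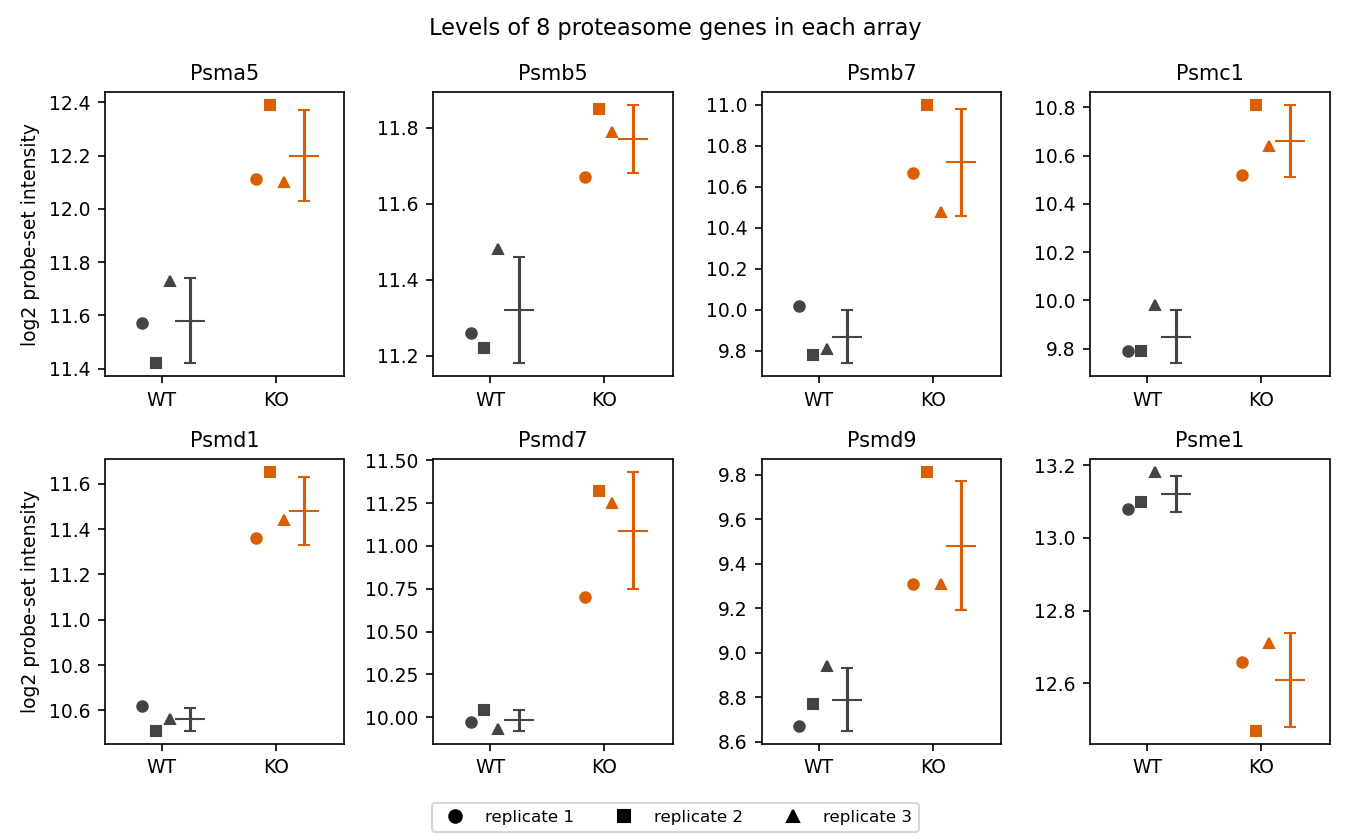
Log2 probe-set intensity (y axis, one scale per gene) of 8 proteasome genes in the 3 WT arrays (grey) and 3 KO arrays (orange); the shape gives the replicate number and the bar beside the points the mean with its SD. For Psma5, Psmb5, Psmb7, Psmc1, Psmd1, Psmd7 and Psmd9 every KO point lies above every WT point, and for Psme1 every KO point lies below, a fall that is not called with hybridization-control scaling.

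The interferon-inducible counterparts of the catalytic subunits went the other way as deposited, and 1 of the 3 was still called lower with hybridization-control scaling. Psmb8, Psmb9 and Psmb10, which are not among the 44 genes, fell by 0.55, 0.86 and 0.59 (limma adjusted p = 0.015, 0.0013 and 0.011). With hybridization-control scaling only Psmb9 of the 3 was still called lower (-0.49, adjusted p = 0.028). Psmb8 and Psmb10 kept a negative difference but were not called (-0.18 and -0.23, limma adjusted p = 0.36 and 0.26). Psmb8 also lost its call without WT replicate 2 or 3 (adjusted p from 0.051 to 0.056). Because scaling an array moves both members of a pair alike, the log2 difference between a standard subunit and its counterpart within an array does not depend on it. These pairs were chosen after the values were seen.

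Psmb6 minus Psmb9 was -0.74, -0.82 and -0.81 in the WT arrays and 0.14, 0.56 and 0.23 in the KO arrays. The WT values lay close together, all KO values were above them, and the change was 1.10, a 2.15-fold change of the ratio. Psmb5 minus Psmb8 was -1.42, -1.61 and -1.40 in WT and -0.62, -0.18 and -0.64 in KO. That pair changed by 0.99, or 1.99-fold. Psmb7 minus Psmb10 was -1.84, -2.21 and -2.32 in WT and -0.73, -0.21 and -1.12 in KO, a change of 1.44, or 2.71-fold. In each pair the groups did not overlap. The exact two-sided permutation test gave p = 0.1, the smallest that 3 against 3 arrays allow, and 0.1 after adjustment over the 5 pairs compared. Both outcomes were fixed beforehand, since in every pair the first gene had all KO values above WT and the second all below. They add no support beyond the single genes. KO replicate 2 had the highest value in all 5 pairs. Without it the change was 0.98 for Psmb6 minus Psmb9, 0.84 for Psmb5 minus Psmb8 and 1.20 for Psmb7 minus Psmb10. A difference between probe sets of different genes is not a ratio of molecules, so only its change is read here.

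**Figure D4:**
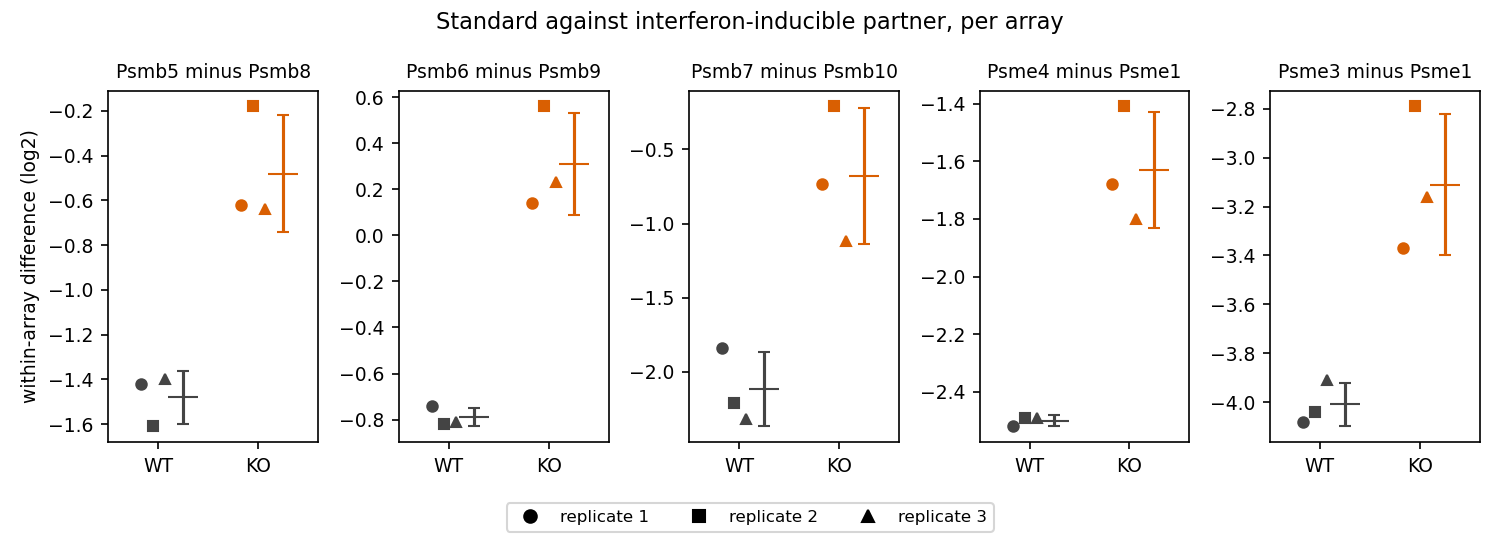
Within-array log2 difference (y axis, one scale per pair) in WT (grey) and KO (orange) arrays, with the mean and SD beside the points. In 3 pairs a standard catalytic gene is set against its interferon-inducible counterpart. In 2 pairs the activator genes Psme4 and Psme3 are set against Psme1, which is not a counterpart that replaces them. In all 5 panels the 3 KO points lie above the 3 WT points, by 0.87 to 1.44 on average, whatever the scaling of the arrays. The separation follows from the single genes, each of which had its KO and WT values apart.

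The 6 ATPases of the base form the ring that unfolds substrates. For all 6 the KO arrays lay above the WT arrays, which held for 24.1% of all genes. Their differences were 0.31 to 0.81 with a median of 0.36. As deposited 3 rose, against 18.6% of all genes, and with hybridization-control scaling 6 rose, against 42.8%. Psmc1 stood at 9.79, 9.79 and 9.98 in WT and at 10.52, 10.81 and 10.64 in KO. It was the ATPase with the largest rise, 0.81 ± 0.11 (1.75-fold, limma adjusted p = 0.0015), and kept its call without any single array; with the mean of its probe sets it was 0.41 (adjusted p = 0.0060). Psmc3 read 11.09, 11.14 and 11.31 in WT and 11.48, 11.66 and 11.55 in KO, and rose by 0.38 (adjusted p = 0.024). Psmc5 read 10.98, 10.98 and 11.04 in WT and 11.27, 11.45 and 11.31 in KO, and rose by 0.34 (adjusted p = 0.022). Both lost their calls when WT replicate 1 or 2 or KO replicate 2 or 3 was left out, with adjusted p from 0.055 to 0.084 for Psmc3 and from 0.053 to 0.077 for Psmc5. Psmc2, Psmc4 and Psmc6 differed by 0.34, 0.42 and 0.31 and were not called (adjusted p = 0.053, 0.067 and 0.11).

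The base also holds 3 non-ATPase subunits, of which 2 rose. Psmd1, the large scaffold that joins the base to the lid and ubiquitin receptors, stood at 10.62, 10.51 and 10.56 in WT and at 11.36, 11.65 and 11.44 in KO. The WT arrays lay close together and every KO array was higher, giving a rise of 0.92 ± 0.10 (1.89-fold, limma adjusted p = 0.00058). Psmd2, the other scaffold, read 11.18, 11.17 and 11.30 in WT and 11.65, 11.83 and 11.69 in KO. It rose by 0.51 ± 0.09 (1.42-fold, limma adjusted p = 0.0051) without overlap, but not when averaged with its second, dim probe set (0.12, adjusted p = 0.28). Psmd4, a ubiquitin receptor, differed by -0.09 with overlapping groups (adjusted p = 0.48); with hybridization-control scaling its difference was 0.28 and still not called (adjusted p = 0.093).

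The lid removes ubiquitin chains before a protein is threaded in, and 6 of its 8 genes rose. Its differences ran from 0.13 to 1.11 with a median of 0.40. All 8 rose with hybridization-control scaling, under which 42.8% of all genes rose. By limma 0 fell at an adjusted or an unadjusted p below 0.05. Psmd7, the partner of the lid's deubiquitinase, stood at 9.97, 10.04 and 9.93 in WT and at 10.70, 11.32 and 11.25 in KO. The WT arrays lay close together, KO replicate 1 was the lowest KO array, and the rise of 1.11 ± 0.17 (2.16-fold, limma adjusted p = 0.0023) was the largest among members above the median level. Psmd3, a lid scaffold, read 9.55, 9.57 and 9.51 in WT and 10.30, 10.38 and 10.07 in KO, and rose by 0.71 ± 0.10 (1.63-fold, limma adjusted p = 0.0019). Psmd7 and Psmd3 kept their calls without any single array; with the mean of its probe sets the rise of Psmd7 was 0.36 (adjusted p = 0.0067). Psmd6 read 11.55, 11.54 and 11.65 in WT and 11.83, 12.15 and 12.04 in KO, and rose by 0.43 (adjusted p = 0.020), a call that ended when WT replicate 1 or 2 or KO replicate 3 was left out (adjusted p from 0.064 to 0.074).

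The other risen lid genes, Psmd11, Psmd12 and Psmd13, rose by 0.39, 0.40 and 0.39 (adjusted p = 0.016, 0.026 and 0.021). Each lost its call when WT replicate 1 or 2 was left out, Psmd12 and Psmd13 also with KO replicate 3 left out, and Psmd12 with KO replicate 2 left out; their adjusted p there ran from 0.053 to 0.091. Psmd14, the deubiquitinase itself, read 11.87, 11.85 and 11.92 in WT and 11.99, 12.28 and 12.15 in KO. Its groups did not overlap, but the difference of 0.26 ± 0.10 was not called (adjusted p = 0.089). Psmd8 differed by 0.13 with overlapping groups (adjusted p = 0.33).

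The activators moved in opposite directions as deposited, though with hybridization-control scaling the fall was not called. Psme1, which encodes the alpha subunit of the interferon-inducible PA28 activator, stood at 13.08, 13.10 and 13.18 in WT and at 12.66, 12.47 and 12.71 in KO. All KO arrays were below all WT arrays and it fell by 0.50 (SE 0.10; 1.42-fold lower, limma adjusted p = 0.0065), the only fall among members above the median level; scaled to hybridization controls the difference was -0.14 and not called (adjusted p = 0.39). Psme2, its partner subunit, shares a probe set with Psme2b and so lay outside the naming rule. That probe set read 12.67, 12.71 and 12.83 in WT and 12.25, 11.99 and 12.34 in KO, and fell by 0.54 (1.46-fold lower, limma adjusted p = 0.010). This fall was not checked with hybridization-control scaling, under which that of Psme1 was not called. Psme4, which encodes the nuclear activator PA200, read 10.56, 10.61 and 10.69 in WT and 10.98, 11.06 and 10.91 in KO. It rose by 0.37 ± 0.09 (1.29-fold, limma adjusted p = 0.016) without overlap, a call lost without WT replicate 1 or 2 (adjusted p from 0.058 to 0.061) and with the mean of its probe sets (0.17, adjusted p = 0.12). Other Psme4 probe sets, at mean levels of 10.24 and 7.93, rose by 0.57 and 0.48 (limma adjusted p = 0.012 and 0.024). The rest in that mean, at levels of 6.03, 5.44 and 3.89, were not called.

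Psme3, which encodes the nuclear PA28 gamma, read 9, 9.06 and 9.27 in WT and 9.29, 9.68 and 9.55 in KO. The difference of 0.40 ± 0.13 was not called (adjusted p = 0.055), although every KO array exceeded every WT array. Psmf1, an inhibitor of the core particle in vitro, had KO replicate 2 alone at 10.11 with its other KO arrays at 9.44 and 9.45 and WT at 9.37 to 9.53, and was not called (0.24, adjusted p = 0.38). Within an array, Psme4 minus Psme1 was -2.52, -2.49 and -2.49 in WT and -1.68, -1.41 and -1.80 in KO. The change was 0.87, or 1.83-fold. For Psme3 minus Psme1 the change was 0.90, or 1.87-fold, again with no overlap and with the exact two-sided permutation p of 0.1 given above. In both pairs the lack of overlap and that p followed from the values of the single genes.

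Dedicated chaperones put the base and the core particle together and are not part of the finished protease. Among the 3 for the base, 2 rose. Psmd9 read 8.67, 8.77 and 8.94 in WT and 9.31, 9.81 and 9.31 in KO. It rose by 0.69 ± 0.15 (1.61-fold, limma adjusted p = 0.014) without overlap, a call lost without WT replicate 1 or 2 (adjusted p from 0.053 to 0.058); with the mean of its probe sets the rise was 0.29 (adjusted p = 0.045). Psmd5 read 9.80, 9.79 and 9.85 in WT and 10.08, 10.50 and 10.19 in KO, and rose by 0.44 ± 0.12 (1.36-fold, limma adjusted p = 0.030). The Psmd5 call was lost without any of the WT arrays or KO replicate 3 (adjusted p from 0.058 to 0.093). Psmd10, which encodes gankyrin, differed by -0.28 with overlapping groups and was not called (adjusted p = 0.20).

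Among the 4 chaperones of the core particle, which assemble the alpha ring, 2 rose. Psmg1 read 10.30, 10.36 and 10.47 in WT and 10.70, 10.89 and 10.89 in KO. The groups were apart and the rise of 0.45 ± 0.10 (1.37-fold, limma adjusted p = 0.011) held without any single array. Psmg3 read 9.23, 9.48 and 9.77 in WT and 9.97, 10.31 and 10.17 in KO, with more spread within each group. It rose by 0.65 ± 0.15 (1.57-fold, limma adjusted p = 0.017), a call that ended when WT replicate 1 or 2 or KO replicate 3 was left out (adjusted p from 0.051 to 0.059) and with the mean of its probe sets (0.23, adjusted p = 0.085). The other probe set in that mean was dim, at a level of 4.85 against 9.82, and was not called. Psmg2 differed by 0.42 (adjusted p = 0.054) and Psmg4 by -0.13 (adjusted p = 0.44).

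The lists that follow are read against the 18.6% of all genes called in each direction. Of 8 listed subunits and assembly factors named otherwise, 6 were measured; 3 rose and the other 3 were not called, with a list median of 0.39. Ecpas, a proteasome-associated scaffold, rose by 0.55 (limma adjusted p = 0.0072), the bound thioredoxin-like gene Txnl1 by 0.70 (adjusted p = 0.0053) and Ipo9, an importin linked to nuclear import of proteasomes, by 0.63 (adjusted p = 0.0019). Pomp, the maturation factor of the core particle, differed by 0.09 and was not called. Of 9 measured enzymes and shuttle receptors that bring ubiquitin chains to the proteasome or edit them there, 2 rose and 7 were not called, a share near that of all genes, with a median of 0.15. Uchl5, a deubiquitinase of the regulatory particle, read 10.43, 10.32 and 10.50 in WT and 11.27, 11.47 and 11.38 in KO. It rose by 0.95 ± 0.09 (1.94-fold, limma adjusted p = 0.00036), whereas Usp14, the other bound deubiquitinase, differed by 0.04 (adjusted p = 0.80). The shuttle gene Ubqln4 rose by 0.76 (adjusted p = 0.00085).

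The segregase p97 pulls ubiquitin-tagged proteins out of membranes and complexes. Of its 9 listed genes 2 rose and 1 fell, near the shares of all genes, and their median was -0.11. Vcp, which encodes p97, rose by 0.46 (limma adjusted p = 0.0046), its cofactor gene Nploc4 rose by 0.66 (adjusted p = 0.0020) and Ubxn7 fell by 0.59 (adjusted p = 0.019). The fall of Ubxn7 was lost without KO replicate 1 (adjusted p = 0.059) and with hybridization-control scaling (-0.22, adjusted p = 0.25). Of the 6 listed ubiquitin and E1 enzyme genes, 1 was measured at a probe set of its own, Uba6, with a difference of 0.19 that was not called.

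Of 13 measured factors known to act on proteasome genes, or on those factors, 4 rose and 2 fell; with 18.6% of all genes called in each direction and a list median of 0.01, the counts are no result about the list. Nfe2l1, which encodes Nrf1, the factor that raises proteasome genes when proteasome activity is short, read 9.17, 9.16 and 9.14 in WT and 9.13, 8.89 and 9.14 in KO and was not called (-0.10, adjusted p = 0.49). Ngly1, whose product removes sugars from Nrf1 during its activation, fell by 0.76 (limma adjusted p = 0.0013) and was still lower with hybridization-control scaling (-0.39, adjusted p = 0.03). Nfe2l2, which encodes Nrf2, rose by 0.63 (adjusted p = 0.0018). Mafg, a small Maf partner of both, read 7.88, 7.76 and 7.88 in WT and 9.29, 8.97 and 9.15 in KO, and rose by 1.30 (2.46-fold, adjusted p = 0.00017). Its relative Mafk fell by 0.43 (adjusted p = 0.014), a call lost without WT replicate 1 or KO replicate 3 (adjusted p from 0.051 to 0.055) and with hybridization-control scaling (-0.07, adjusted p = 0.64). Nfya, a subunit of NF-Y, rose by 0.92 (adjusted p = 0.0019). Foxm1, named after its value was seen, rose by 0.41 (adjusted p = 0.037) and lost its call without any single array other than WT replicate 1 (adjusted p from 0.059 to 0.1).

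The 2 genes that match by name only differed from each other. Psmc3ip encodes HOP2, a cofactor of meiotic recombination that is not part of the proteasome. It read 7.41, 7.66 and 7.93 in WT and 8.84, 9.31 and 9.04 in KO, and rose by 1.40 ± 0.17 (2.63-fold, limma adjusted p = 0.00085). Psme3ip1 differed by -0.17 and was not called (adjusted p = 0.19).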

How the data were processed

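The values are log2 intensities per probe set, which the authors deposited after RMA (version not given), per the submitters' processing notes; no further transformation was applied. Per the labels, amplification of the RNA was primed by oligo(dT) together with random primers. The table lists 45101 probe sets, of which 45037 were tested after 64 array controls were removed; 34945 were annotated to 1 gene, 932 to several and 9160 were not listed. The RefSeq gene table of GRCm38.p6 held the Entrez ID of 34741. Each of 18193 genes was read at its brightest probe set. RMA values carry no detection calls, the number of arrays limits the precision, and probe sets with the suffix _s_at or _x_at (among them those of Psmd11, Psme4, Psmc2 and Psma6) may bind related transcripts.

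R 4.3.3 and limma 3.58.1 were used: lmFit and eBayes with genotype as the only term, tested on simulated data, with two-sided p-values adjusted over all 45037 probe sets and a threshold of 0.05. Named genes were the catalytic Psmb5, Psmb6 and Psmb7, in each role up to 3 members with the largest rise and up to 3 with the largest fall past the threshold, and in each other list up to 3 in each direction; other members are given by range and count, or by name where few are described, chosen after their values were seen. The members and gene lists were chosen with earlier results of these data known, so their counts are descriptions. The labels' replicate numbers do not state a pairing of mice. The 15 alternatives covered a filter on dim probe sets, normalization and scaling, the variance model, array weights, the replicate block, the probe set per gene and leaving out each array; the within-array pairs were added after seeing the data.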

Additional observations from a re-analysis of the deposited data

How the results depend on the processing

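The count of 23 risen members became 37 with scaling to hybridization controls, under which 42.8% of all genes rose. It lay between 20 and 28 under the other unblocked alternatives with all arrays, and ran from 10 to 27 when 1 array was left out. The share of all genes that rose was 17.8% to 19.7% in the former, or 28.5% among probe sets above the median level. Without 1 array, 14.3% to 17.6% of all genes rose. The labels do not state whether the numbers shared by WT and KO pair the mice. Same-numbered arrays did not deviate together (correlations of deviations 0.10, -0.24 and -0.20 for numbers 1 to 3). With 3 arrays per group this cannot exclude a pairing. With the replicate block 16 members rose, all 16 among the 23, against 16% of all genes. The calls of Psma7, Psmc3, Psmc5, Psmd5, Psmd11, Psmd13 and Psme4 ended (limma adjusted p = 0.059, 0.058, 0.071, 0.062, 0.054, 0.053 and 0.061). The fall of Psmb11 ended too (0.085). Members that fell, 2 as deposited, became 1 among probe sets above the median level, 0 with hybridization-control scaling, 1 with the replicate block and 1 to 2 without 1 array. The median difference of 0.39 moved to 0.75 with hybridization-control scaling and otherwise ran from 0.27 to 0.41 with all arrays, and from 0.32 to 0.42 without 1 array. Among the 23 genes named by rule that match the naming pattern, no difference changed sign; of the 8 members with a negative difference, all not called but Psmb11 and Psme1, 2 were negative with hybridization-control scaling. Genes of the other lists were rerun only without 1 array, with that scaling and with the block. Of the 23, 9 kept their call under every alternative that gave them a value: Psma5, Psma8 (no value among probe sets above the median level), Psmb7, Psmc1, Psmc3ip, Psmd1, Psmd3, Psmd7 and Psmg1. Psmb6 was called only with hybridization-control scaling. The cause of these changes was not tested. Dim probe sets, Psma8 and Psmb11 here, lie near background, where differences are compressed.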

Other observations

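Members not called at their brightest probe set had 17 further probe sets above the median level of all probe sets, in 12 genes. Of these probe sets 4, in 3 genes, rose and 13 were not called. Among probe sets above that level, 28.5% of all genes rose at their brightest one, so the count is no result about these members. Psmc6, an ATPase of the base, differed by 0.31 at its brightest probe set (limma adjusted p = 0.11), while another read 9.85, 9.85 and 10.03 in WT and 10.51, 10.96 and 10.58 in KO and rose by 0.77 (adjusted p = 0.0046). A further Psmc6 probe set rose by 1.02 (adjusted p = 0.011). For Psme3 a second probe set rose by 0.60 (adjusted p = 0.038), and for Psmg2 by 0.48 (adjusted p = 0.021). These genes were picked after their values were seen. Among the 23 risen members, 9 had further probe sets above the median level, 15 in all. Of these 6 rose and 9 were not called, to be read beside the same 28.5%.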
